A study of Mus musculus with 96 samples.

Results

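The major urinary proteins (Mup) are a family of lipocalins that hepatocytes secrete into the blood and that pass into mouse urine. The 10 genes described here, Mup1, Mup2, Mup3, Mup7, Mup9, Mup11, Mup12, Mup17, Mup20 and Mup21, were picked by gene name from the 56748 genes of a liver, muscle and cortex RNA-seq count table. They were selected with their measured liver values known, in both sets of mice, so their values under the 2 diets are given as a description and carry no test. The study asked what a daily fast does to the liver, skeletal muscle and cerebral cortex of the mouse. It read 96 poly-A RNA libraries, 8 for each tissue, diet and sex, and 32 of them come from liver. Mice 1-16 were male C57BL/6 animals on normal chow, with no genetic change stated. Mice 1-8 ate ad libitum (AL), and mice 9-16 were held without food for 16 h of every day (intermittent fasting, IF), from 6 weeks of age and for 4 months, with tissue taken around the end of the daily fast. Mice 25-40 are labelled female, with mice 25-32 on AL and mice 33-40 on IF. Their strain, age, fasting hours and time on the diet are not stated in the sources used here, since the methods describe male animals. Libraries are named below by mouse number, and each is a separate animal.

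A major urinary protein folds into a barrel that holds small volatile pheromones and releases them slowly from urine marks. Male mice make far more of these proteins than females, under the control of pulsed growth hormone, testosterone and thyroid hormone. The family is split between a central group of nearly identical genes and pseudogenes and a few more divergent genes at its edges, among them Mup20, which encodes the male pheromone protein darcin.

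The 32 liver libraries held 26097314 to 44763638 counts assigned to genes, with a median of 36077590. At this depth Mup3 gave up to 482296 counts in 1 AL library of mice 1-8, while Mup9 gave at most 100 counts in an IF library of mice 9-16. Levels are CPM, counts scaled to the total assigned counts of each library. The labels matched their markers: the sum of 6 hepatocyte genes was 44459 to 100470 CPM in the liver libraries, with albumin (Alb) the most abundant, and the sum of 4 skeletal muscle genes was at most 5.91 CPM. The Y-linked Ddx3y was between 37.6 and 70.8 CPM in mice 1-16 and at 0 in all 16 libraries of mice 25-40, where Xist was 620 to 1627 CPM. The 10 genes were close to absent from the other tissues. Their summed level was 0 to 0.733 CPM in the 32 muscle libraries, with a median of 0.164, and 0 to 0.269 CPM in the 32 cortex libraries, with a median of 0.0274. Mup1, Mup2, Mup11, Mup12 and Mup17 had 0 counts in all 32 cortex libraries.

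Since near-identical genes of the family can share reads, and neither the strand setting nor the handling of reads with several matches is stated for the authors' counting, the sum over the 10 genes is given first. In mice 1-8 on AL the sum was 20270 CPM in the lowest library, 25665 at the median and 38770 in the highest. In mice 9-16 on IF it was 6540, 9008 and 11590 CPM. Every IF library lay below every AL library. The 10 genes thus took 2.57% of all assigned counts at the AL median and 0.901% at the IF median. The means were 26720 ± 6078 CPM (SD, n = 8) and 9190 ± 1865 CPM (SD, n = 8), a log2 ratio of IF to AL of -1.54 (SE 0.155), or 2.91-fold lower. The albumin gene, made by the same cells, stood at 26581, 33865 and 49644 CPM under AL and at 23146, 30185 and 38930 CPM under IF. Its groups overlapped, and its log2 fold change of -0.29 (SE 0.145) did not pass the edgeR test over all genes (adjusted p = 0.113). The sum of the 6 hepatocyte genes also overlapped, with means of 59868 and 57643 CPM. Its members went both ways. The mean of Cyp2e1 was 2762.7 CPM under AL and 8660.5 CPM under IF, without overlap. Tat and Cps1 also had higher means under IF, and Alb, Apoa1 and Ttr lower ones. In whole tissue, fewer cells of a type and less RNA per cell cannot be told apart.

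**Figure D1:**
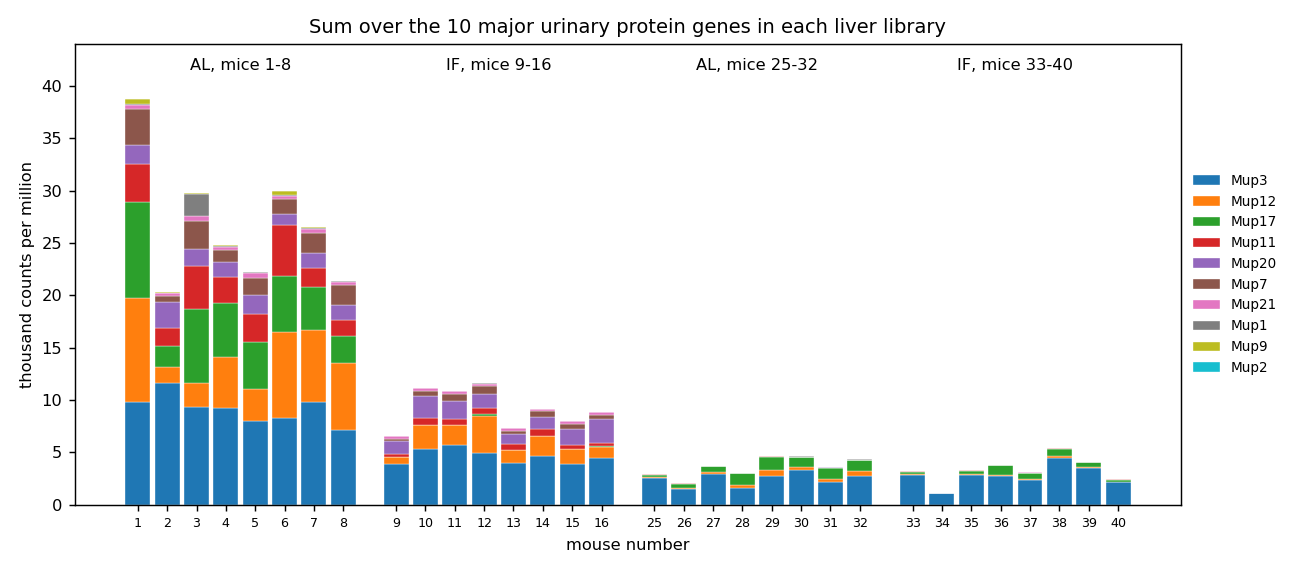
Summed CPM (vertical axis) of the 10 major urinary protein genes in each of the 32 liver libraries, by mouse number, with each gene's share of the bar in its own colour. The bars of mice 1-8 reach from 20270 to 38770 CPM and those of mice 9-16 from 6540 to 11590 CPM, while the bars of mice 25-32 and 33-40 overlap.

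Within the family the difference between diets in mice 1-16 ran from over 100-fold to almost none. Of the 10 genes, 5 had no overlap between AL and IF libraries, with every IF library lower (Mup1, Mup3, Mup9, Mup11 and Mup17), and 5 overlapped. The same held for 5.58% of the 16204 genes tested, and 8.97% had every IF library higher; nothing is read from the members' count because they were selected on these values. All 10 fitted log2 fold changes were negative, with a median of -2.32 beside 0.06 over all genes tested.

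Mup17 and Mup9 showed the widest gaps. Mup17, from the central group (chromosome 4, 61510166 to 61514108 on GRCm39), was at 2009, 4833 and 9206 CPM in the lowest, median and highest AL library. Under IF it was at 2.57, 26.2 and 149 CPM. The groups lay far apart: the highest IF library, mouse 12, was below the lowest AL library by over 10-fold, and the next IF library was at 38.6 CPM. The fitted log2 fold change was -7.15 (SE 0.781), and -7.91 without mouse 12. Mup9, another central gene, was at 29.5, 102 and 466 CPM under AL. Under IF it was at 0.258, 1.16 and 2.88 CPM, from 10 to 100 counts a library. No IF library came near the AL range, and the fitted log2 fold change was -7.03 (SE 0.775).

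Mup11, Mup12 and Mup7, central genes that stayed abundant under IF, differed by less. Mup11 was at 1530, 2605 and 4928 CPM under AL and at 334, 561 and 642 CPM under IF, without overlap, for a log2 fold change of -2.59 (SE 0.266). Mup12 was at 1488, 5588 and 9926 CPM under AL and at 662, 1650 and 3535 CPM under IF. In Mup12, 4 of 8 IF libraries were below all AL libraries and the other 4 were above mouse 2, the lowest AL animal, and the log2 fold change was -1.73 (SE 0.436). Mup7 was at 587, 1790 and 3446 CPM under AL and at 164, 468 and 711 CPM under IF, with a log2 fold change of -2.06 (SE 0.352). Its overlap came from the AL library of mouse 2, below which 6 of 8 IF libraries still lay.

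Mup1 and Mup2, like Mup9, were low among the central genes, and in both a single AL animal stood high. Mup1 was at 31.7, 84.4 and 2086 CPM under AL and at 9.32, 18.0 and 25.3 CPM under IF. The AL value of 2086 CPM belongs to mouse 3, and the next AL library was at 112 CPM. With mouse 3 the fitted log2 fold change was -4.32 (SE 0.961), and without it -2.19 (SE 0.301); DESeq2 gave -2.13 with all libraries. Mup2 was at 1.74, 6.49 and 21.9 CPM under AL, where mouse 1 was the highest, and at 0.387, 1.15 and 2.04 CPM under IF. A single AL library, that of mouse 2, overlapped the IF range of Mup2, and the log2 fold change was -2.76 (SE 0.428).

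The 3 genes at the distal edge of the cluster, Mup20, Mup3 and Mup21, had the smallest fold changes of the 10. Mup3 was at 7175, 9281 and 11654 CPM under AL and at 3864, 4577 and 5727 CPM under IF. Its groups did not overlap and its replicates were tight, with the highest AL library 1.62 times the lowest, so that the log2 fold change of -1.08 carried an SE of 0.128. Mup20, the gene of darcin, was at 1026, 1566 and 2506 CPM under AL and at 923, 1420 and 2259 CPM under IF. The ranges of Mup20 were almost the same, and its log2 fold change was -0.16 (SE 0.176), -0.08 without mouse 2 and -0.26 without mouse 10. Mup21 was at 241, 351 and 422 CPM under AL and at 179, 273 and 337 CPM under IF, with overlap and a log2 fold change of -0.46 (SE 0.141).

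**Figure D2:**
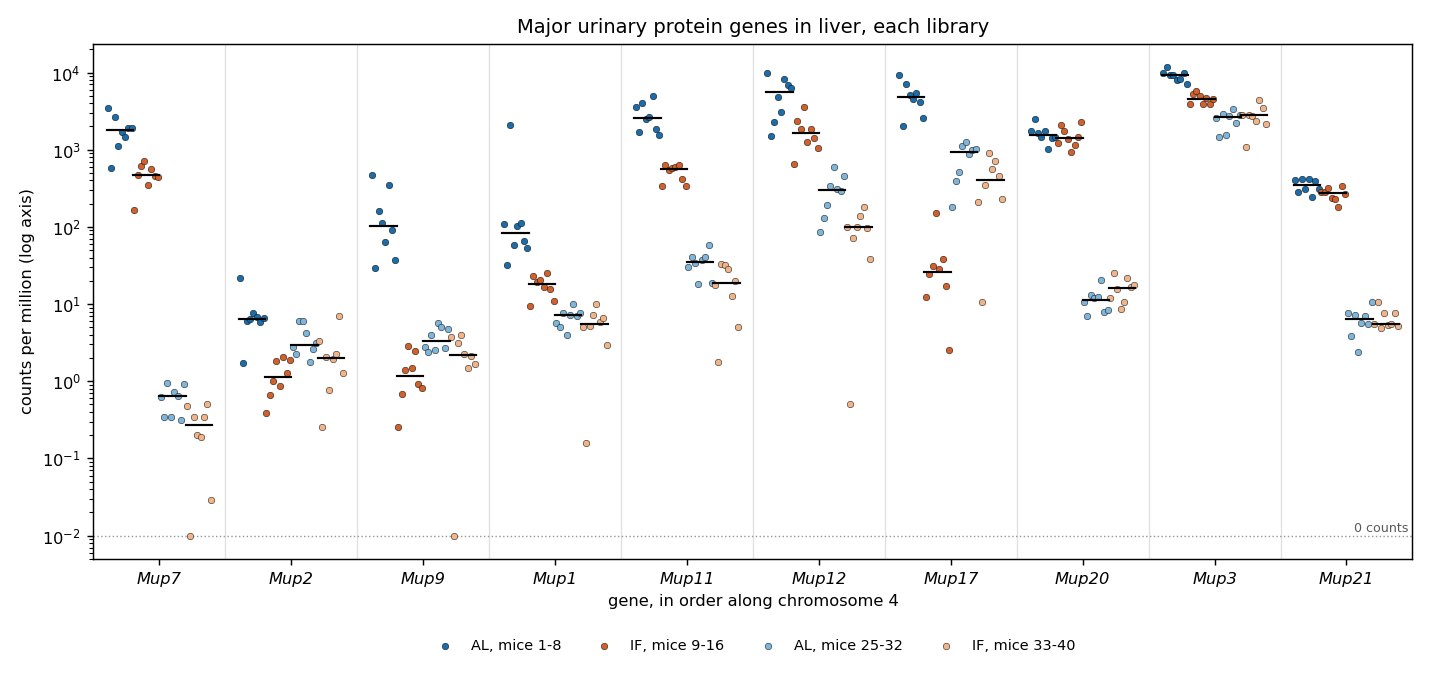
CPM (vertical log axis) of the 10 genes in each of the 32 liver libraries, with 1 point a library and a bar at the median of each group of 8; the genes stand in order along chromosome 4, and libraries with 0 counts are drawn on the dotted line. Mup17 and Mup9 show the widest gap between mice 1-8 and mice 9-16, Mup20 the least, and in mice 33-40 a single library, mouse 34, lies far below the others in Mup12, Mup17, Mup11 and Mup1.

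The order of the genes, compared per kilobase of gene length, changed with these differences. In mice 1-8 the medians ran from Mup3 (8690 CPM per kb, the 13th highest of all genes) through Mup12 (6034) and Mup17 (5214) to Mup7 (1733), Mup20 (1688), Mup11 (1653), Mup21 (518), Mup9 (67.9), Mup1 (53.3) and Mup2 (4.86). Neighbours such as Mup12 and Mup17, Mup7, Mup20 and Mup11, or Mup9 and Mup1 lay within the spread of their libraries. In mice 9-16 Mup3 remained first (4286 CPM per kb, 15th of all genes), followed by Mup12 (1782) and Mup20 (1531). Mup17 went from rank 18 among all genes to rank 1434, at 28.3 CPM per kb, and Mup9 from rank 630 to rank 11345, at 0.774 CPM per kb. Mup7, Mup21 and Mup11 lay close together in mice 9-16, at 453, 403 and 356 CPM per kb. The makeup of the sum over the 10 genes moved with them: Mup17 made up 19.1% of it at the AL median and 0.254% at the IF median, while Mup3 made up 34.7% and 50.8%, and Mup20 5.68% and 17.1%. The share of Mup12 was 22.6% and 17.5%, and its libraries ranged over 7.34% to 29.5% under AL.

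In mice 25-40 the family sum was lower than in mice 1-16 under either diet, and its groups overlapped. It was 2063, 3647 and 4643 CPM in the lowest, median and highest library of mice 25-32 on AL, and 1119, 3254 and 5406 CPM in mice 33-40 on IF. The means of 3615 ± 909 CPM (SD, n = 8) and 3312 ± 1250 CPM (SD, n = 8) gave a log2 ratio of -0.13 (SE 0.231), which was 0.00 without the lowest IF library, mouse 34. None of the 10 genes was without overlap, beside 0.00627% of the 15938 genes tested with every IF library lower and 0.0125% with every IF library higher. The fitted log2 fold changes of the 10 genes had a median of -0.61, with 7 negative and 3 positive, beside -0.01 over all genes tested. Whether the diet difference itself differed between mice 1-16 and mice 25-40 was not tested.

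Mup3 carried most of the sum over the 10 genes in mice 25-40, 68.0% at the AL median and 85.2% at the IF median. It was at 1477, 2655 and 3335 CPM under AL and at 1069, 2780 and 4469 CPM under IF, with a log2 fold change of 0.20 (SE 0.233), smaller than the spread between libraries. The log2 fold change of Mup3 was 0.06 without mouse 38 and 0.32 without mouse 34. Of the 10 genes Mup17 was second, at 182, 942 and 1257 CPM under AL and 10.6, 403 and 916 CPM under IF, and its log2 fold change was -0.84 (SE 0.587). Mup12 came next, at 86.9, 302 and 590 CPM under AL and 0.510, 98.2 and 178 CPM under IF. Of these genes Mup12 had the widest gap, with a log2 fold change of -1.71 (SE 0.654) and of -1.51 (SE 0.377) without mouse 34; 3 of 8 IF libraries were below all AL libraries. Mup11 was at 35.5 CPM at the AL median and at 18.8 CPM at the IF median.

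Mup7, Mup20 and Mup21, like Mup11, were far lower in mice 25-32 than in mice 1-8. Mup7 was the lowest of the 10 per kilobase, with 0.313 to 0.940 CPM under AL and 0 to 0.507 CPM under IF and at most 35 counts in a library. Mup20 was at 7.07, 11.2 and 20.4 CPM under AL and at 8.69, 16.1 and 25.3 CPM under IF, a log2 fold change of 0.52 (SE 0.226) within overlapping groups. Mup21 was at 2.41 to 10.6 CPM under AL and at 4.92 to 10.8 CPM under IF. Its log2 fold change of 0.09 (SE 0.245) was smaller than its error and changed sign when single libraries were left out. Mup1, Mup2 and Mup9 had medians of 7.13, 2.99 and 3.36 CPM under AL and of 5.48, 1.999 and 2.22 CPM under IF, with overlap in each.

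Mouse 34, replicate 2 of the IF animals labelled female, stood apart within the family. Its Mup12 was 0.510 CPM, where the other 7 IF animals held 38.04 to 178 CPM, and its Mup17 was 10.6 CPM beside 212 to 916 CPM. Mup11 was at 1.75 CPM and Mup1 at 0.159 CPM in this liver, and Mup7 and Mup9 had 0 counts. The edge genes were split. Mup20, at 25.3 CPM, and Mup21, at 10.8 CPM, were the highest of the 8 IF libraries, while Mup3, at 1069 CPM, was the lowest. Its hepatocyte sum of 98223 CPM was the second highest of the 8, its Y-linked genes were at 0, and its lymphocyte sum of 28.97 CPM was the highest of the liver libraries. Its stellate sum of 167 CPM was also the highest of the liver libraries, and its Kupffer sum was 439 CPM beside 159 to 276 CPM in the other 7; the part of these in its Mup levels was not tested. Cux2, a transcription factor of female liver, was at 16.6 CPM in mouse 34 and at 124 to 338 CPM in the other 7 IF animals.

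The table holds 49 genes named Mup or Mup-ps, of which 39 lie outside the 10: 12 protein-coding genes and 27 pseudogenes. All but Mup-ps22, on chromosome 11, lie on chromosome 4 between 59956804 and 62069100 (GRCm39), a span of 2.11 Mb in which the 10 genes are all on the minus strand and their exons measure 677 to 1584 bases in the count table. With the other family genes added, the sum was 25077, 34058 and 50209 CPM in mice 1-8 and 7677, 10008 and 12733 CPM in mice 9-16, a log2 ratio of -1.74, so the 10 genes held 75.8% of the family counts at the AL median and 87.2% at the IF median. Of the other family genes, 18 had enough counts to be tested in mice 1-16 by edgeR, and 15 of them fell and 0 rose, with a median log2 fold change of -2.69. Of all genes tested, 21.1% fell and 23.5% rose, 44.6% in all. With the level of the erythroid genes as a covariate, 8 of the 18 fell. This count alone does not tell a smaller difference from a wider error. Among the 10 genes, Mup11 was at -2.61 (SE 0.403) with the covariate and -2.59 (SE 0.266) without it. Mup7 was at -1.535 (SE 0.498) and -2.058 (SE 0.352). The other family genes may share reads with the 10, so their calls are not independent of them. Without the covariate, the 3 of the 18 not called were Mup14, Mup19 and Mup-ps19. In mice 25-40, 17 of the other family genes were tested and edgeR called 0 of them, as it called 0 (0%) of the 15938 genes; 919 genes passed an unadjusted p of 0.05, and DESeq2, which exceeded its nominal rate of false calls on simulated counts, called 6.

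**Figure D3:**
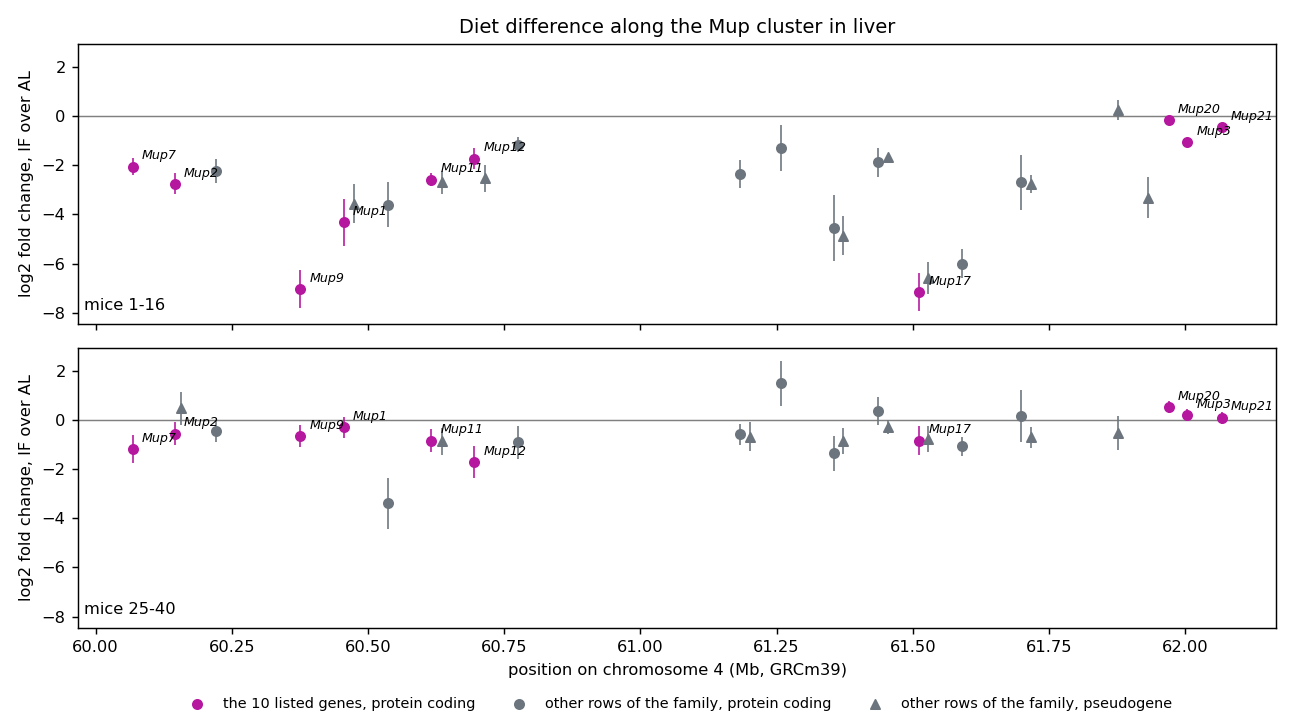
Fitted log2 fold change, IF over AL (vertical axis, bars are SE), of each family gene tested in liver against its position on chromosome 4 in megabases (GRCm39), for mice 1-16 above and mice 25-40 below; purple marks the 10 genes, grey circles other protein-coding family genes and grey triangles pseudogenes. In mice 1-16 the 10 genes run from -7.15 (Mup17) to -0.16 (Mup20), with Mup20, Mup3 and Mup21 together at the distal end.

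Along the cluster, the next protein-coding gene after Mup17 is Mup18, which also differed widely. Mup18 was at 22.4, 61.6 and 272 CPM under AL and at 0.286, 1.54 and 2.56 CPM under IF in mice 1-16. Mup9 lies at 60374045 to 60377951, and the next protein-coding family gene is Mup1 at 60454011 to 60457959. Mup-ps19, on the centre side of Mup20, was the single tested family gene of mice 1-16 with a positive log2 fold change. Within the span, 2 noncoding genes outside the family had enough counts to be tested, and they are named after their values were seen. Gm12909, which begins just upstream of Mup3 on the opposite strand, was at 111, 132 and 183 CPM in mice 1-8 and 33.2, 76.6 and 96.0 CPM in mice 9-16, without overlap (edgeR log2 fold change -1.01, SE 0.162, adjusted p = 2.11e-05). Gm13775, which overlaps Mup-ps16 on the same strand and can share reads with it, was at 42.0 to 119 CPM under AL and 9.41 to 19.1 CPM under IF (edgeR log2 fold change -2.31, SE 0.214, adjusted p = 4.08e-08). In mouse 34, Gm13775 was at 13.99 CPM, beside 133 to 229 CPM in the other 7 IF animals of mice 33-40.

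Single animals differed in which family gene carried the reads, within a diet group. Which gene such reads belong to is uncertain, because these genes have little sequence of their own. Of the stretches of 150 bases in their reference transcripts, 1.01% of Mup19 and 9.21% of Mup15 were found in no other gene. The shares were 15.6% for Mup10 and 32.4% for Mup14. Mouse 3, whose Mup1 was at 2086 CPM, had Mup19 at 13.9 CPM, while the other 7 AL animals of mice 1-8 had Mup19 at 1375 to 3451 CPM. Mup19 also split the IF animals of mice 9-16, with mice 12, 14 and 16 at 9.13, 5.77 and 4.93 CPM and the other 5 at 98.4 to 966 CPM. Mice 26 and 27, on AL, were at 12.8 and 15.1 CPM of Mup19, and the other 6 animals of their group at 615 to 1517 CPM. Mup15 was at 142 CPM in mouse 8 and 323 CPM in mouse 6, and at 3466 to 7768 CPM in the other 6 animals of mice 1-8. Mup10 was at 124 CPM in mouse 6 and at most 9.33 CPM in the rest of its group, and at 142 CPM in mouse 31 and at most 4.90 CPM in the rest of that group. Mup14 was at 1269 CPM in mouse 7, 765 CPM in mouse 15 and 264 CPM in mouse 37, each far above its group. The sum over the 10 genes varied by 1.91-fold between the highest and lowest library of mice 1-8. Mup1 varied more, by 65.9-fold, as did Mup12, by 6.67-fold. Mup3 (1.62-fold) and Mup21 (1.75-fold) varied less than the sum.

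The reference transcripts give a guide to which of the 10 genes a read can name. In the main annotated transcript of each gene, stretches of 150 bases were looked up in the transcripts of every other annotated gene. These transcripts differ from the genes as counted. That of Mup7 has 1781 bases beside 1033 in the count table, and that of Mup1 895 beside 1584. Single stretches also do not describe the 2 ends of a read pair. All stretches of Mup3 and of Mup21 were found in no other gene, and at 50 bases 83.6% of Mup3 and 85.2% of Mup21 still were. Mup17 had 62.7% of its own at 150 bases and 26.7% at 50. Of Mup20, 44.4% of the stretches of 150 bases were its own. The other 55.6% all lie in a single annotated gene not named Mup, and 31.1% were also found in another family gene. The gene not named Mup is not among the counted genes that lie within the span of the family. Mup7 had 39.5%, Mup1 31.4%, Mup12 24.7%, Mup11 24.0%, Mup9 23.8% and Mup2 10.99%, and the last had 0% at 50 bases. Mup1 and Mup12 share most with each other, 66.4% of the stretches of Mup1 and 73.3% of those of Mup12. By this measure Mup3 and Mup21 are the best separated of the 10. The order of the others depends on the length: at 50 bases Mup7 had 6.81% of its own, less than Mup9 (9.65%), Mup12 (14.5%), Mup11 (15.9%) and Mup1 (17.0%).

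Promoter sequence is shown for Mup17 and Mup9, with the widest diet gaps in mice 1-16, and for Mup3 and Mup21, with smaller ones. RefSeq (GRCm38.p6) gave the 250 bases before to 50 bases after the start of Mup2, Mup3, Mup7, Mup9, Mup11, Mup17 and Mup21, and no entry for Mup1, Mup12 and Mup20. The letters TATATAA, searched on both strands, occur in 6 of these 7 promoters, all but that of Mup7, and in 3.24% of the 32851 promoters of the table. The letters TTCNNNGAA (STAT5) and TTGCNNAA (C/EBP) occur in 0 of the 7, and in 8.3% and 10.8% of all promoters; this says only that these letters are not in these 300 bases. Between Mup2, Mup7, Mup9, Mup11 and Mup17 the promoters are 97.6% to 99.6% identical over their aligned bases in 10 pairs. The pairs with Mup7 align over 163 to 194 bases, and Mup2 with Mup17 over 295. The Mup7 entry thus covers partly different sequence, and its lack of TATATAA holds for those 300 bases only. To Mup3 or Mup21 the promoters of these central genes are 84.9% to 88.8% identical. Mup3 and Mup21 are 94.2% identical to each other. The stretches below, each 130 bases from the minus strand of GRCm38.p6, end in the TATATAA letters, which are in capitals. They are Mup17 at chr4:61595851-61595980, Mup9 at chr4:60421977-60422106, Mup3 at chr4:62087322-62087451 and Mup21 at chr4:62150843-62150972.
Mup17: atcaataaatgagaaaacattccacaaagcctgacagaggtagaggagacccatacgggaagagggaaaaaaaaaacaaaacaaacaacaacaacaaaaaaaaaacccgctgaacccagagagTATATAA
Mup9: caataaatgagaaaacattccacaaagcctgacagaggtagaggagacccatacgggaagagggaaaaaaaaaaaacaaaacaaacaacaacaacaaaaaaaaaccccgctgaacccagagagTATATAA
Mup3: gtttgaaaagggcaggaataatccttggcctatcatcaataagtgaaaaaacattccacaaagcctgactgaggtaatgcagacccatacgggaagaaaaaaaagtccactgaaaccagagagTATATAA
Mup21: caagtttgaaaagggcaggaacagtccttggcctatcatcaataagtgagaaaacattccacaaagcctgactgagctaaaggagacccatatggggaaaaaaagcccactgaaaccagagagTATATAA

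Genes of growth hormone signalling and other genes linked to Mup expression were read from the edgeR fit over all genes. In that fit 23.5% of all genes tested rose and 21.1% fell in mice 1-16. Of 12 genes of growth hormone and STAT5 signalling, the pathway that drives male Mup expression, 1 rose and 2 fell in mice 1-16, with a median log2 fold change of 0.03. The growth hormone receptor Ghr fell (log2 fold change -0.49, SE 0.118, adjusted p = 0.00153), with every IF library below every AL library. Stat5a fell by 0.65 on the log2 scale (SE 0.155), and Cux2 rose from 0.879 to 1.75 CPM at the median, a call that was lost without mouse 9 (log2 fold change 0.82). With the erythroid level as a covariate 1 of the 12 genes rose and 0 fell, and Ghr (-0.46), Stat5a (-0.58) and Cux2 (0.44) were not called. The 1 that rose there is thus a gene not called without the covariate. Without it, Stat5b, Igf1 and Socs2 did not pass the test. Of 15 further genes, hormone receptors and liver transcription factors linked to Mup expression, 2 rose and 5 fell. The thyroid hormone receptor Thra was at 25.96, 49.5 and 78.7 CPM in mice 1-8 and at 6.47, 9.51 and 17.8 CPM in mice 9-16. It fell by 2.29 on the log2 scale (SE 0.223, edgeR adjusted p = 8.99e-08), and the prolactin receptor Prlr by 1.33 (SE 0.130, adjusted p = 1.58e-08). Cebpb rose (log2 fold change 1.56, SE 0.179) and so did Foxa3 (1.05, SE 0.130), in each with every IF library above every AL library, while Foxa1, Thrb and Insr fell by under 0.6. With the erythroid covariate 2 rose and 2 fell, and Foxa1 (-0.34), Thrb (-0.33) and Insr (-0.15) were not called. Zhx2, Cebpa and Hnf4a did not pass.

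The other sex-biased genes of the liver did not move as 1 block with Mup17 and Mup9. Of 10 male-biased genes other than Mup, 4 rose and 5 fell in mice 1-16, with a median log2 fold change of -0.62. Among all genes tested there, 23.5% rose and 21.1% fell, and the counts of the sex-biased lists are given as a description. Elovl3, a fatty acid elongase, fell from 398 to 105 CPM at the median (edgeR log2 fold change -2.08, SE 0.165, adjusted p = 6.46e-10), and the steroid enzyme Hsd3b5 from 170 to 83.3 CPM. Cyp2d9 rose from 1759 to 2522 CPM (log2 fold change 0.41, SE 0.119), without overlap. Cyp7b1 rose by 0.66, a call lost in several alternatives, among them those without mouse 6, 10 or 15 (0.60, 0.63 and 0.58). With the erythroid covariate 4 rose and 4 fell, with Nudt7 (-0.64, from -1.07) not called. Of 14 female-biased genes, 6 had enough counts to be tested in mice 1-16, of which 4 rose and 1 fell. This count leaves out 8 of the 14 and depends on the filter: Cyp2a4 was tested although its highest AL library was at 0.603 CPM, and Cyp2b13, with means of 0.682 CPM under AL and 0.0253 CPM under IF, was not tested. Acot3 rose from 2.02 to 68.8 CPM (log2 fold change 4.84, SE 0.235) and Cyp2a4 from 0.233 to 2.95 CPM (3.41, SE 0.365), each without overlap, and Hao2 fell from 0.770 to 0.113 CPM. With the erythroid covariate 3 rose and 1 fell, with Prom1 (0.85, from 1.35) not called. In mice 25-40 edgeR called 0 genes of each of these lists.

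Relatives of the Mup genes and other proteins secreted by hepatocytes moved in both directions. Of all genes tested in mice 1-16, 23.5% rose and 21.1% fell, and the counts of both lists are given as a description. Of 13 other lipocalins, 12 are in the table and 11 were tested in mice 1-16, where 4 rose and 3 fell with a median log2 fold change of 0.20. Apom, the lipocalin of lipoprotein particles, rose from 28.4 to 212 CPM at the median (edgeR log2 fold change 2.78, SE 0.189, adjusted p = 1.71e-10) and the retinol carrier Rbp4 from 2146 to 5167 CPM (1.18, SE 0.129). In both, every IF library was above every AL library, the opposite of Mup3. Lcn12 fell from 1.38 to 0.0159 CPM (log2 fold change -4.10, SE 0.767). With the erythroid covariate 3 lipocalins rose and 2 fell, and Orm2 (1.04, from 1.86) and Obp2a (-1.81, from -2.75) were not called. Of 16 plasma proteins, 3 rose and 5 fell, with a median of -0.08; Apoe and Trf rose by 0.82 and 0.81 on the log2 scale, and Apoa1 fell by 0.48. With the erythroid covariate 2 rose and 0 fell. Hp, which rose without it (0.47), was at 0.33 and was not called. The 5 genes that fell without it were not called either. Their log2 fold changes were -0.32 (Apoa1), -0.43 (Apoc1), -0.41 (Apoc3), -0.22 (Fgb) and -0.43 (Gc). In mice 25-40 edgeR called 0 genes of both lists.

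Some markers of other cells moved with the diet in mice 1-16, where 23.5% of all genes tested rose and 21.1% fell. The counts of these short lists are given as a description. Of the 5 erythroid genes, 3 rose by edgeR (Hba-a1, Hbb-bs and Hbb-bt), with a median log2 fold change of 1.70. Their summed level was 620, 956, 519, 386, 619, 693, 457 and 362 CPM in mice 1 to 8, with Hba-a1 the most abundant. In mice 9 to 16 it was 6879, 4344, 667, 702, 1692, 2449, 837 and 3033 CPM, with Hbb-bs the most abundant. Of the IF animals, 5 lay above all AL animals, and none of the 5 markers was at 0 in a group. The part of these cells in the Mup differences was not tested. With the erythroid level as a covariate the log2 fold changes of the 10 genes ran from -6.89 (SE 1.103) for Mup9 to -0.27 (SE 0.256) for Mup20. Mup17 was at -6.26 (SE 0.939, from -7.155) and Mup7 at -1.535 (SE 0.498, from -2.058). Mup12 was at -1.25 (SE 0.628) and Mup21 at -0.30 (SE 0.205). The sum of 4 endothelial genes was 108 to 146 CPM in mice 1-8 and 156 to 326 CPM in mice 9-16, with 2 of 4 called higher and Stab2 the most abundant. The sum of 4 stellate genes was 66.3 to 113 CPM and 117 to 167 CPM, with Dcn called higher and the most abundant. Neither sum overlapped between diets, and their part was not tested. With the erythroid covariate 0 genes of both lists were called, at log2 fold changes of 0.47 (Stab2, from 0.73), 0.12 (Clec4g, from 0.56) and 0.44 (Dcn). Of the Kupffer, cholangiocyte, lymphocyte and neuron lists, 2 of 5, 3 of 4, 1 of 4 and 1 of 2 tested genes were called higher, 1 cholangiocyte gene was called lower, and their sums overlapped between AL and IF. The Kupffer calls, Clec4f and Marco, were lost in many of the alternatives run, mostly with log2 fold changes close to their 0.41 and 1.69 (0.38 and 1.72 with 7 against 7 animals), but without mouse 16 these were 0.24 and 0.69. With the erythroid covariate the Kupffer, lymphocyte and neuron lists had 0 calls (Clec4f 0.15, Marco 1.08, Cd3d 1.04, Syt1 0.64). Of the cholangiocyte list 2 rose and 1 fell, with Krt19 (0.78) not called. Of 6 hepatocyte genes 1 rose (Cyp2e1) and 1 fell (Apoa1). Their sum was 50717 to 76995 CPM under AL and 45961 to 70440 CPM under IF. No skeletal muscle gene was tested. In mice 25-40 edgeR called 0 genes of every marker list.

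Within groups, the genes whose level followed the family sum most closely across the 32 liver libraries were Ugt2b5 (Pearson r 0.736), Sult2a7 (0.728), Hspb6 (0.702), Cyp4v3 (0.696), Adtrp (0.678), Cat (0.660), Cyp2d10 (0.639) and Cycs (0.638), of 13397 genes compared on the log2 scale after the mean of each group was taken off. The libraries share the diet groups and the same scaling, and these values are a description. Part of the likeness rests on mouse 34: over the other 31 libraries r was 0.669 for Ugt2b5, 0.626 for Adtrp, 0.543 for Cat, 0.538 for Cycs, 0.524 for Cyp2d10, 0.472 for Hspb6, 0.450 for Sult2a7 and 0.445 for Cyp4v3, an exclusion chosen after the values were seen. Sult2a7 followed the family sum with r 0.831 in mice 25-40 and 0.200 in mice 1-16.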

How the data were processed

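The deposited file holds the authors' raw featureCounts count of each of 56748 genes, from paired-end dUTP libraries aligned to GRCm39 (HISAT2). The liver libraries were analysed as 4 groups of 8. CPM used the total count of each library. Diets were compared with edgeR 4.0.16 (R 4.3.3; TMM, filterByExpr with a minimum count of 10, quasi-likelihood, Benjamini-Hochberg adjusted p of 0.05 over all genes tested), for mice 1-16 and mice 25-40 apart, with DESeq2 1.42.0, other scaling and filters, an erythroid covariate, a replicate block and left-out libraries as alternatives. The study states 7 animals per group for its RNA data and does not name them, and all 8 were used here. The alternative with 7 against 7 animals left out mice 2 and 10, after the study's proteome. These may not be the animals left out of its RNA data. Named genes are the 10 members, the other Mup genes, and lists of growth hormone signalling, Mup regulators, sex-biased genes, lipocalins, plasma proteins and cell markers, plus the 8 genes most like the family sum. Members and lists were chosen with earlier results of these data known. The scripts were tested on simulated counts. Promoters came from RefSeq and transcripts from GENCODE. Results of some listed genes are not reported here.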

Additional observations from a re-analysis of the deposited data

Results flagged for a closer look

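In 25 of the 132 groups of 8 libraries tested, a single library stood apart by the gap to its nearest neighbour over the whole range (Dixon ratio); chance gives about 1 in 20 such groups when values are normal. CPM are skewed upward, and all 25 libraries were the highest of their group, so an excess over chance is not shown. Most were family genes in a single animal. Mup1 was at 2086 CPM in mouse 3 (next 112), and Mup2 at 21.9 CPM in mouse 1 (next 7.59) and 7.09 CPM in mouse 39 (next 3.35). Mup17 was at 149 CPM in mouse 12 (next 38.6), Mup20 at 20.4 CPM in mouse 30 (next 12.9) and Mup21 at 10.8 CPM in mouse 34 (next 7.58).

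Among the other family genes, Mup10 was at 124 CPM in mouse 6 and 142 CPM in mouse 31. Mup14 stood apart in all 4 groups, at 1269 CPM in mouse 7, 765 CPM in mouse 15, 35.1 CPM in mouse 28 and 264 CPM in mouse 37. Mup15 was at 982 CPM in mouse 10, 266 CPM in mouse 28 and 87.4 CPM in mouse 39. Mup16 was at 433 CPM in mouse 15, Mup18 at 78.8 CPM in mouse 32 and Mup-ps19 at 203 CPM in mouse 2. Mice 15, 28 and 39 each appear with 2 family genes.

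Of the list genes, Thra (17.8 CPM) and Cux2 (4.31 CPM) were high in mouse 9, Ghr (528 CPM) and Elovl3 (662 CPM) in mouse 1, Elovl3 (4.87 CPM) in mouse 29, Apom (53.7 CPM) in mouse 2 and Lcn12 (1.08 CPM) in mouse 33. The causes of these values were not tested.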

How the results depend on the processing

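The family sum of mice 1-16 kept its direction in each alternative run: the log2 ratio was -1.63 with TMM scaling, -1.66 with RLE scaling, -1.74 over all family genes, -1.51 from medians, -1.63 with 7 against 7 animals and -1.60 to -1.44 without 1 library. In mice 25-40 it was -0.09, -0.08, -0.18 and -0.17 for the first 4, and -0.26 to 0.00 without 1 library. Of the fold changes of the 10 genes, 230 of 230 kept their sign in mice 1-16 and 214 of 216 in mice 25-40; those of Mup1 moved beyond its spread without mouse 3, with DESeq2 and with the replicate block.

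The number of liver genes called, mice 1-16, was 7234 in the main comparison, 3995 with the erythroid covariate and 6842 to 7219 without 1 library. In mice 25-40, 0 calls became 6 with DESeq2, which exceeded its nominal rate of false calls on simulated counts, and 919 at an unadjusted p of 0.05, and stayed 0 without any 1 library. Hba-a1 reversed to -0.53 with the erythroid covariate, which is built from it. Of 2937 values of other named genes in mice 1-16, 80 became weaker, 34 of them with that covariate, and 58 stronger, 1 of them with it. The cause of these changes was not tested.

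Same-numbered AL and IF mice are different animals, and their deviations correlated between -0.041 and 0.105 in mice 1-16 and between -0.176 and 0.11 in mice 25-40, so the numbers do not pair them. With a replicate block the family log2 ratio was -1.54 and -0.20, and the liver genes called, mice 1-16, were 7090 and in mice 25-40 0.

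Depth limits Mup7 in mice 25-40 (at most 35 counts) and, in mice 9-16, Mup2 (at most 82) and Mup9 (at most 100).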
